A study of Oryza sativa Japonica Group with 15 samples.

Results

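Roots of rice plants that had received 2 leaf sprays of piperonylic acid (PA2x) were compared with roots of plants that had received 1 leaf spray of acibenzolar-S-methyl (ASM, also known as BTH). The comparison rests on 6 of the 15 libraries of the study, the 3 PA2x and the 3 ASM libraries, which were picked by their labels and by no measured value. Each library came from the roots of 4 plants pooled, of the japonica cultivar Kitaake, and was made by QuantSeq, which reads the 3′ ends of polyadenylated transcripts. PA2x plants were sprayed with 300 µM piperonylic acid on days 7 and 13 after transplantation. ASM plants were sprayed with 250 µM acibenzolar-S-methyl on day 13. PA1x plants received 300 µM piperonylic acid on day 13 and BABA plants 3.5 mM beta-aminobutyric acid on day 13, and mock plants, the control, were given their spray on day 13. Sprays held 0.1% Tween 20, and all roots were taken on day 14. Compound, dose and schedule thus differ together between PA2x and ASM. No mock group sprayed on days 7 and 13 was analysed here, and the values cannot tell the compound from the earlier spray.

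Acibenzolar-S-methyl stands in for salicylic acid, the hormone that plants use against many pathogens. In rice, its protection against blast disease runs through the transcription factor WRKY45 and, on a separate branch, through the co-activator NPR1. Piperonylic acid blocks cinnamate 4-hydroxylase, the enzyme that turns cinnamic acid into p-coumaric acid on the way to lignin and many other phenolics. Both compounds were given to leaves, so the root values describe what happened in an organ that had not been sprayed.

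Recovered read totals ran from 4851344 to 6815702 in the PA2x libraries and from 6066946 to 6911751 in the ASM libraries. Values are given as normalised reads, the reads of a gene divided by a size factor for its library. Of 36747 features, 18316 genes had a mean of at least 5 normalised reads over the 15 libraries and were tested with limma on log2(value + 1). A gene is said to be called where its adjusted p (Benjamini-Hochberg over all tested genes, two-sided) was under 0.05. The samples are bulk roots, in which fewer cells of a type and less RNA per cell cannot be told apart. The labels do not say whether the pools of a group were grown or sprayed apart. The p-values thus measure a spread between pools, estimated over all 15 libraries together and not from PA2x and ASM alone. The root gene RCc3 (Os02g0662000) had 11403, 9386 and 13327 normalised reads in PA2x roots, against 7787, 5299.6 and 4391 in ASM roots and 10576, 6507 and 12358 in mock roots. It was thus abundant in every library, with all PA2x values above all ASM values but no call (log2 fold change 0.99, adjusted p = 0.0578). Leaf photosynthesis genes, 7 in all, summed to 46.8, 12.7 and 45.6 normalised reads in PA2x libraries, 122, 60.7 and 24.0 in ASM libraries and 18.9, 313 and 108 in mock libraries. The genes at 0 numbered 1, 2 and 1 of 7 in the PA2x libraries, 0, 0 and 3 in the ASM libraries and 2, 0 and 0 in the mock libraries. The 4 leaf genes with enough reads for the test had 1 positive and 3 negative values, 0 called and a median log2 fold change of -0.86, PA2x minus ASM. The 3 reference genes, among them an actin and an elongation factor, had positive values, 0 called and a median of 0.06. The actin, ACT1 (Os03g0718100), had 1181, 1140 and 1092 in PA2x roots, against 906, 993 and 981 in ASM roots. Its groups did not overlap (log2 fold change 0.25), and it was chosen after its values were seen.

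PA2x replicate 3 and ASM replicate 1 were the lowest of their own groups in several lists of defence genes. The list of 13 genes for diterpenoid phytoalexins, antimicrobial compounds of rice, had medians of 1.08, 1.35 and -0.89 in the 3 PA2x libraries and of -0.72, 0.36 and 1.08 in the 3 ASM libraries, as log2 deviations from the mean of the 15 libraries. The mock libraries had 0.28, 0.60 and -0.98, and replicate 3 of PA1x and of BABA had -1.19 and -1.53. The lists for flavonoids and for pathogenesis-related proteins had their lowest PA2x and ASM values in PA2x replicate 3 and ASM replicate 1. The list of salicylate and defence WRKY genes had 0.29, 0.24 and 0.20 in the PA2x libraries and 0.37, 0.20 and 0.50 in the ASM libraries. There ASM replicate 1 was not the lowest. In the nitrogen list PA2x replicate 2 was lowest with -1.03, against 0.02 and -0.37 in the other PA2x libraries. ASM replicate 1 was highest there with 0.37, against -0.34 and -0.12 in the other ASM libraries. What sets these libraries apart was not tested.

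**Figure D1:**
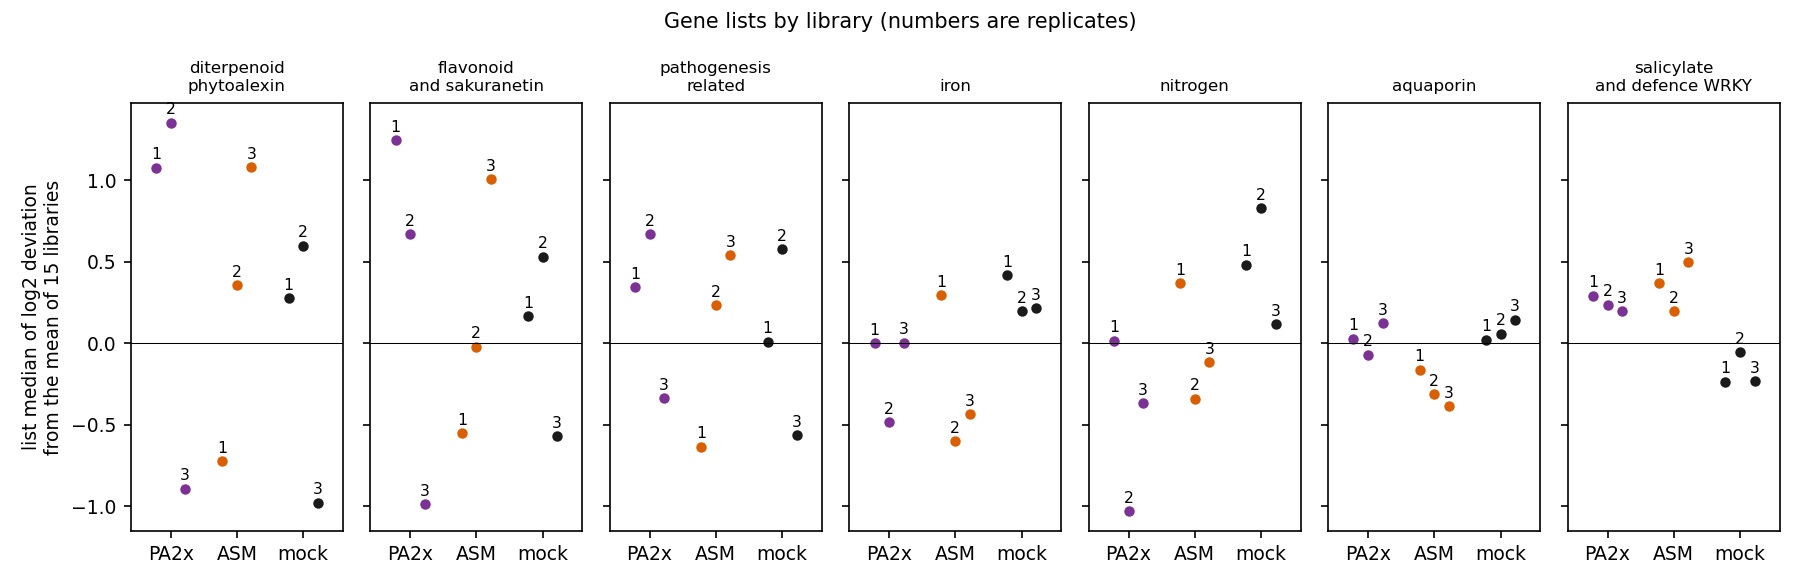
Median log2 deviation of each of 7 gene lists from the mean of the 15 libraries (vertical axis), for the 3 PA2x, 3 ASM and 3 mock libraries, with the replicate number at each point. PA2x replicate 3 and ASM replicate 1 lie low in the diterpenoid panel, at -0.89 and -0.72, and in the aquaporin panel the 3 PA2x points lie above the 3 ASM points.

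PA2x roots differed from ASM roots in 264 of the 18316 genes, 1.44% of those tested, at an adjusted p under 0.05. In PA2x roots 91 genes were higher (0.497%) and 173 were lower (0.945%). All 264 had PA2x and ASM values that did not overlap, which held for 6.57% of all tested genes with PA2x higher and for 7.99% with PA2x lower. The median log2 fold change was 0.85 among the genes called higher and -0.93 among those called lower, and 32 and 72 genes were past 2-fold. Over all genes the median was 0.01 and 51.1% of values were positive. An unadjusted p under 0.05 was reached by 2176 genes (11.9%).

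The mock libraries share the filter and the estimate of spread with this contrast but are neither of the groups it compares. By its mean, mock was nearer to PA2x than to ASM in 148 of the 173 genes lower in PA2x roots, and nearer to ASM in 25. Among the 91 genes that were higher in PA2x roots, mock was nearer to PA2x in 57 and nearer to ASM in 34. These genes were picked for a gap between PA2x and ASM. The like share over all tested genes was not computed, nor was the split without ASM replicate 1. Each group was also set against the same 3 mock libraries, which both comparisons share. PA2x roots differed from mock roots in 170 genes (0.928%), and ASM roots differed from mock roots in 830 genes (4.53%). The count for PA2x was 68 without PA2x replicate 1 and 43 without PA2x replicate 2, and that for ASM was 400 without ASM replicate 3.

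The count of 264 depended on the libraries in the fit. It was 127 without PA2x replicate 1, 120 without PA2x replicate 2, 139 without ASM replicate 2 and 107 without ASM replicate 3. With only the 6 libraries in the fit it was 57, with 11 genes higher and 46 lower, and of 15 called genes named here 5 kept their call (WRKY62, Os01g0304400, Os05g0458600, Os10g0515900 and Os12g0555100). Without ASM replicate 1 the majority turned: 157 of 281 genes (55.9%) were higher in PA2x roots, against 34.5% with all libraries. Without both PA2x replicate 3 and ASM replicate 1, a choice made after seeing the data, 117 of 229 genes (51.1%) were higher. The excess of lower genes in PA2x roots was thus absent without ASM replicate 1.

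**Figure D2:**
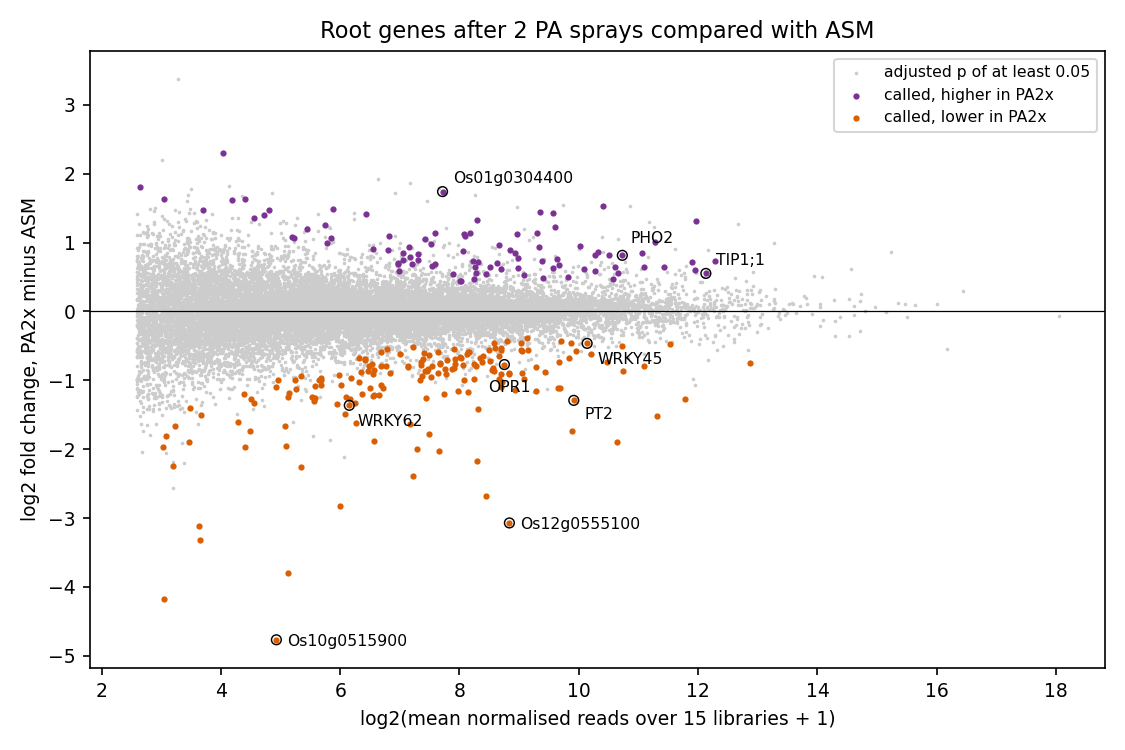
Log2 fold change of every tested gene, PA2x minus ASM (vertical axis), by its mean level over the 15 libraries on a log2 scale (horizontal axis), with called genes in colour. The lowest called gene, Os10g0515900, lies at -4.77, and WRKY62, PHO2 and 6 other genes described in the text are circled.

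Of the salicylate signalling and defence WRKY genes 3 were lower in PA2x than in ASM roots, WRKY62, WRKY45 and NPR2, and none was called higher, where 0.945% of all tested genes were called lower and 0.497% higher. WRKY62 (Os09g0417800), a WRKY transcription factor that acts downstream of WRKY45 in rice defence, had 66.2, 65.8 and 55.0 normalised reads in PA2x roots, against 169, 164 and 152 in ASM roots and 24.3, 28.7 and 27.4 in mock roots. The 3 groups did not overlap, with ASM highest, PA2x in between and mock lowest. WRKY62 was 2.57-fold lower in PA2x than in ASM roots (log2 fold change -1.36 ± 0.21 SE, adjusted p = 0.00315; 95% interval -1.80 to -0.93). It kept its call in all 17 alternatives tried, with adjusted p between 0.0104 and 0.0182 when single libraries were left out. Both groups were above mock (log2 fold change 1.19 for PA2x, adjusted p = 0.0118, and 2.55 for ASM, adjusted p = 9.33e-06).

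WRKY45 (Os05g0322900), the transcription factor that acibenzolar signalling needs in rice, followed the same order at a smaller step. It had 1149, 1189.6 and 1328 normalised reads in PA2x roots, against 1711, 1691 and 1644 in ASM roots and 906, 845 and 917 in mock roots. No PA2x value reached the lowest ASM value, and no mock value reached the lowest PA2x value. WRKY45 fell to 0.73-fold of the ASM level in PA2x roots (log2 fold change -0.46 ± 0.10 SE, adjusted p = 0.0251). Against mock it was higher in both groups (log2 fold change 0.46 for PA2x, adjusted p = 0.0353, and 0.92 for ASM, adjusted p = 5.71e-05). The call between PA2x and ASM was sensitive to single libraries, with adjusted p of 0.112 without PA2x replicate 1, 0.100 without PA2x replicate 2, 0.0537 without ASM replicate 1, 0.0858 without ASM replicate 2 and 0.0765 without ASM replicate 3.

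WRKY76 (Os09g0417600), a neighbour of WRKY62 in the file's numbering that represses defence in rice, had 352, 326 and 413 normalised reads in PA2x roots, against 563, 491 and 532 in ASM roots and 109.6, 95.5 and 116 in mock roots. Its groups did not overlap either, yet the comparison of PA2x with ASM missed the threshold (log2 fold change -0.54 ± 0.13 SE, adjusted p = 0.0532). It passed without PA2x replicate 3 (adjusted p = 0.0358), with edgeR (0.0288) and with DESeq2 (0.00641). Against mock WRKY76 was higher in PA2x roots (log2 fold change 1.75, adjusted p = 9.02e-06) and in ASM roots (2.3, adjusted p = 1.64e-07). WRKY genes have near copies that may share 3′ reads.

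NPR2 (Os01g0767900), a relative of the salicylate co-activator NPR1, had 444, 345 and 390.5 normalised reads in PA2x roots, against 667, 463 and 586 in ASM roots and 369, 399 and 361 in mock roots. PA2x and mock values overlapped each other and lay below all ASM values. NPR2 was lower in PA2x than in ASM roots (log2 fold change -0.53 ± 0.12 SE, adjusted p = 0.0450). The call ended with adjusted p of 0.192 without PA2x replicate 2, 0.0889 without PA2x replicate 3, 0.129 without ASM replicate 1 and 0.169 without ASM replicate 3, and with the replicate number as a block (adjusted p = 0.0521), without the filter on low values (adjusted p = 0.0548) and with only the 6 libraries in the fit (adjusted p = 0.304). NPR1 (Os01g0194300) itself had 520.3, 488 and 350.2 in PA2x roots, against 452, 438 and 477 in ASM roots, and the groups overlapped. Its log2 fold change was -0.03 with a 95% interval of -0.38 to 0.33, so differences of up to 0.38 in size were not excluded.

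WRKY28 (Os06g0649000), a WRKY factor that represses defence in rice, had values in the other direction, with 6260.1, 7432 and 6074 normalised reads in PA2x roots, against 4653, 4447 and 4893 in ASM roots and 3910.3, 4005 and 3827 in mock roots. All PA2x values lay above all ASM values, but the difference was not called (log2 fold change 0.49 ± 0.13 SE, adjusted p = 0.0697). DESeq2 called WRKY28 higher (adjusted p = 0.00783). Of the 15 tested members of the salicylate and defence WRKY list, 3 were called lower, 0 were called higher, 5 had positive and 10 negative values, and the median was -0.03, against 0.01 over all genes. In 4 members all PA2x values were below all ASM values, and in 1 above, against 7.99% and 6.57% of all tested genes.

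**Figure D3:**
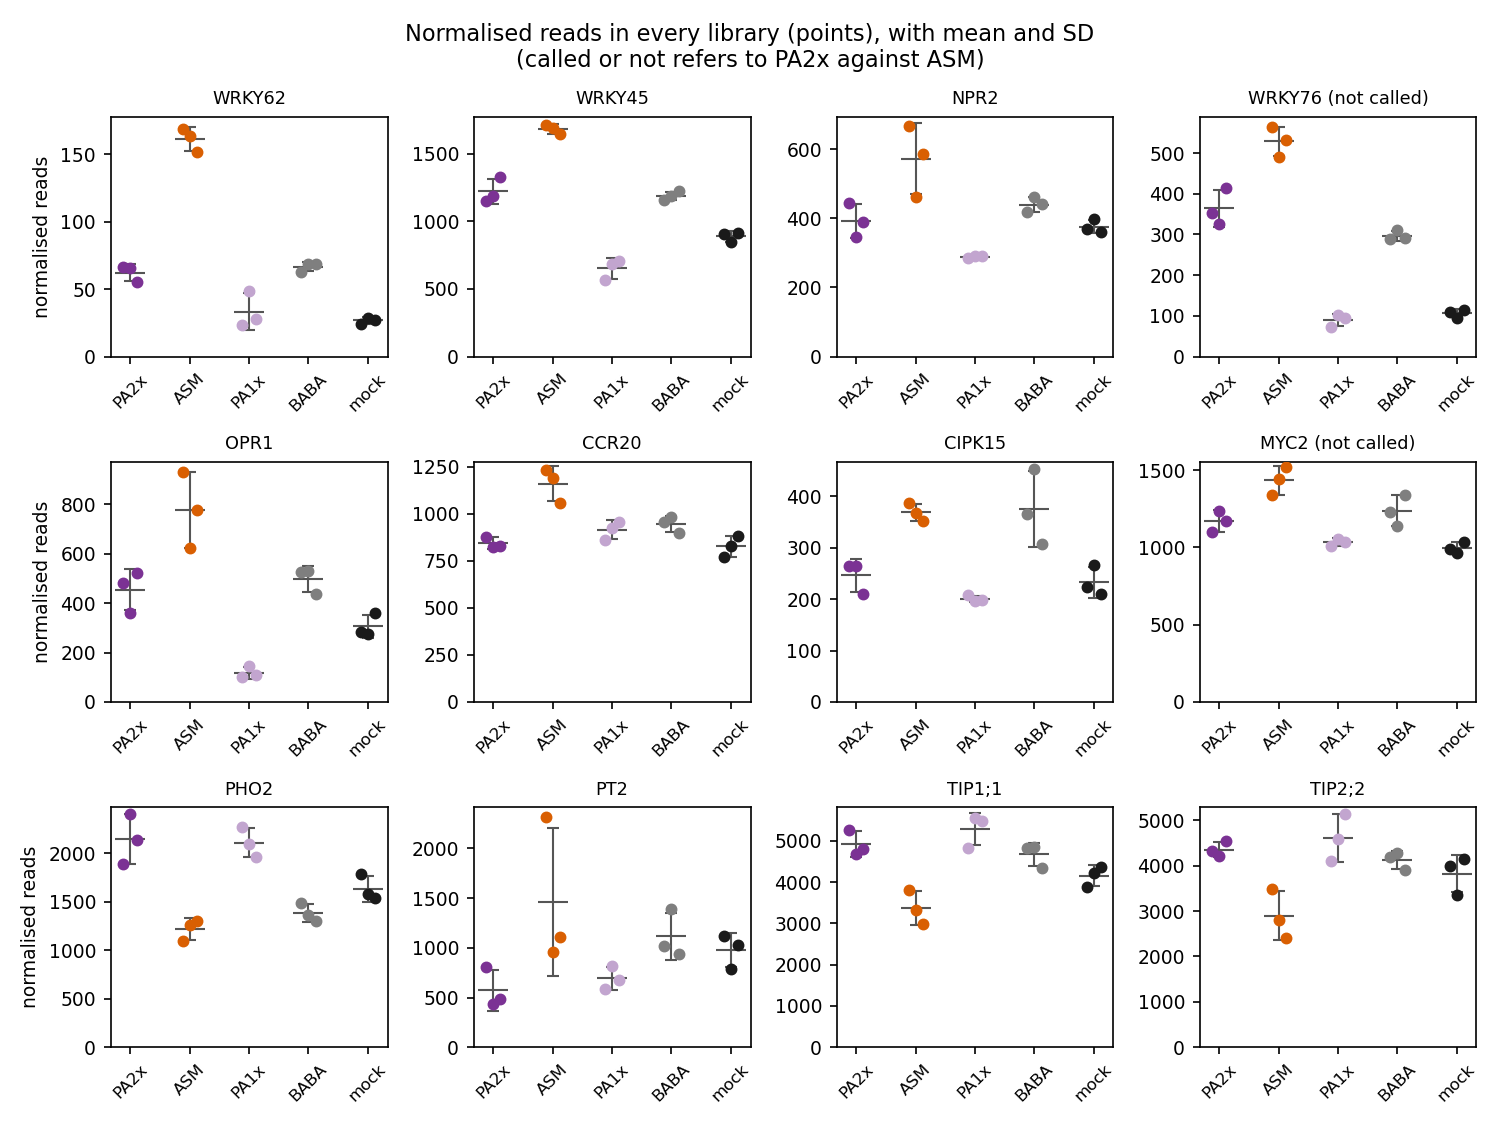
Normalised reads of 12 genes in each library (points) with the mean and SD of each group of 3, for PA2x, ASM, PA1x, BABA and mock roots. In the WRKY62 panel the PA2x points lie at 55.0 to 66.2 and the ASM points at 152 to 169, and the TIP1;1 and TIP2;2 panels show PA2x above ASM.

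Genes of the jasmonate list had positive and negative values in like numbers, and 1 of them was called. OPR1 (Os06g0216300), of the 12-oxophytodienoate reductase family, had 481, 361 and 521 normalised reads in PA2x roots, against 929.8, 622 and 778 in ASM roots and 284, 274 and 359 in mock roots. The highest PA2x value lay below the lowest ASM value, and the lowest PA2x value just above the highest mock value. OPR1 was lower in PA2x than in ASM roots (log2 fold change -0.77 ± 0.18 SE, adjusted p = 0.0407), with adjusted p of 0.0916 without PA2x replicate 1, 0.183 without PA2x replicate 2, 0.125 without ASM replicate 1 and 0.137 without ASM replicate 3. Its call also ended with the replicate number as a block (adjusted p = 0.0527) and without the filter on low values (adjusted p = 0.0504). OPR7 (Os08g0459600), of the same family, had 1162, 1374 and 965 in PA2x roots, against 925, 1034 and 1308 in ASM roots. Its groups overlapped and it was not called. OPR7 was chosen after its values were seen, and whether OPR1 acts in jasmonate synthesis in these roots was not tested.

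JAR1 (Os05g0586200), which conjugates jasmonate with isoleucine into the active hormone, had 410.4, 334 and 428 normalised reads in PA2x roots, against 458, 422 and 422 in ASM roots and 209, 258 and 230.4 in mock roots. PA2x and ASM overlapped (log2 fold change -0.16 ± 0.11 SE, adjusted p = 0.639), and both lay above mock in every library. MYC2 (Os10g0575000), the transcription factor that jasmonate releases from its JAZ repressors, had 1098, 1238 and 1174 in PA2x roots, against 1338, 1443 and 1521 in ASM roots, without overlap and without a call (log2 fold change -0.29 ± 0.09 SE, adjusted p = 0.164). JAZ13 (Os10g0391400), of the JAZ repressor family, had values in the other direction, with 2599, 2631 and 2116 in PA2x roots, against 1875, 1703 and 2039 in ASM roots, also without overlap and without a call (log2 fold change 0.38 ± 0.13 SE, adjusted p = 0.238). JAZ13 was chosen after its values were seen. Of 17 tested jasmonate genes 9 had positive and 8 negative values, 0 were called higher and 1 was called lower (0.945% of all genes), and the median was 0.03.

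Transcripts of the enzyme that piperonylic acid blocks and of the enzyme before it were compared next. Cinnamate 4-hydroxylase (C4H) is the enzyme it blocks, and phenylalanine ammonia-lyase (PAL) makes the cinnamic acid that C4H uses. No PAL or C4H gene was called between PA2x and ASM roots. PAL1 (Os02g0626100) had 35700.5, 38928 and 37006 normalised reads in PA2x roots, against 39466, 36465 and 35785 in ASM roots and 34416, 33536 and 34550.2 in mock roots. PA2x and ASM values overlapped, and the 95% interval of the PA2x minus ASM log2 difference was -0.31 to 0.31. PAL4 (Os02g0627100) had 4543, 4431 and 3509 in PA2x roots, against 4952, 4665 and 5786 in ASM roots and 2491, 2920.0 and 2121 in mock roots (log2 fold change -0.31 ± 0.15 SE, adjusted p = 0.459). All PA2x values of PAL4 lay below all ASM values and above all mock values, and against mock it was higher in both groups (log2 fold change 0.73 for PA2x, adjusted p = 0.0321, and 1.04 for ASM, adjusted p = 0.000959).

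The other PAL genes had PA2x minus ASM log2 fold changes between -0.25 for PAL2 (Os02g0626400) and 0.08 for PAL5 (Os04g0518100). In between lay PAL3 (Os02g0626600) with -0.17, PAL7 (Os05g0427400) with -0.08 and PAL6 (Os04g0518400) with -0.04. Their adjusted p ran from 0.632 for PAL2 to 0.955 for PAL7. The widest interval was that of PAL7, -0.72 to 0.56, and the narrowest of these 5 was that of PAL6, -0.35 to 0.27. Several PAL genes are near copies of each other and may share reads.

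C4H1 (Os05g0320700) had 2425, 2036 and 1155 normalised reads in PA2x roots, against 2318, 1923 and 2565 in ASM roots and 1591, 2516 and 1288 in mock roots, with PA2x replicate 3 lowest of the 6 (log2 fold change -0.33 ± 0.28 SE, adjusted p = 0.715). C4H4 (Os02g0467600) had 1453, 1433 and 750.1 in PA2x roots, against 696, 1012 and 1415 in ASM roots and 596, 888 and 346 in mock roots, and again the groups overlapped (log2 fold change 0.22 ± 0.37 SE, adjusted p = 0.885). C4H3 (Os02g0467000) was scarce, with 14.3, 17.0 and 13.4 in PA2x roots and 13.9, 8.66 and 15.3 in ASM roots (log2 fold change 0.25, 95% interval -0.67 to 1.17). C4H2 (Os01g0820000) had 0 reads in all 15 libraries, where a count of 0 allows up to 3 reads, or 2.89 to 4.03 normalised reads in the 6 PA2x and ASM libraries. The intervals of C4H1 and C4H4, -0.92 to 0.25 and -0.57 to 1.00, were wide, so a moderate change in either gene was not detectable with these pools.

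Over the general phenylpropanoid list, 11 of 14 tested genes had negative and 3 positive values, 0 were called, and the median was -0.11, with a range of -0.20 to 0.01 when 1 library was left out. Downstream, the secondary wall and lignin list had 8 tested genes, with 5 positive and 3 negative values. Of these 0 were called higher and 1 lower, against 0.497% and 0.945% of all tested genes. The list median was 0.03. That median was 0.12 without PA2x replicate 3 and -0.04 without PA2x replicate 1. The called gene was CCR20 (Os08g0441500), of the cinnamoyl-CoA reductase family that opens the lignin branch. It had 878, 820.3 and 829 normalised reads in PA2x roots, against 1233, 1187 and 1055 in ASM roots and 772, 827 and 883 in mock roots. PA2x and mock values interleaved, and all lay below the ASM values. The difference between PA2x and ASM was -0.46 on the log2 scale (0.0205 as adjusted p), and adjusted p was 0.0504 without PA2x replicate 1, 0.0889 without PA2x replicate 2, 0.0506 without PA2x replicate 3, 0.0550 without ASM replicate 1 and 0.0831 without ASM replicate 2.

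Secondary wall cellulose synthase CESA7 (Os10g0467800) had 505, 504 and 500.5 normalised reads in PA2x roots, against 383, 460.2 and 299 in ASM roots, without overlap and without a call (log2 fold change 0.42 ± 0.19 SE, adjusted p = 0.376). CESA7 was chosen after its values were seen. The primary wall cellulose synthase list had 4 positive and 1 negative value, 0 called and a median of 0.07, which was 0.00 without ASM replicate 1.

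Of the pathogenesis-related and phytoalexin genes none was called, and PR1a and 2 momilactone genes were spread widely within the groups. PR1a (Os07g0129200), a marker of salicylate responses, had 5262, 6593 and 2851 normalised reads in PA2x roots, against 5292, 7882 and 10271 in ASM roots and 3275, 4749 and 2405 in mock roots. PA2x replicate 3 was lowest and ASM replicate 3 highest of the 6, and PA2x replicate 2 lay within the ASM range (log2 fold change -0.70 ± 0.36 SE, adjusted p = 0.464). CPS4 (Os04g0178300), a diterpene cyclase on the way to momilactones, had 1495, 1896 and 389 in PA2x roots, against 382, 862 and 1531 in ASM roots. The interval of its log2 fold change was -1.01 to 1.77 around 0.38. KSL4 (Os04g0179700), the enzyme after CPS4, had 266, 296 and 49.6 in PA2x roots, against 20.9, 113 and 202 in ASM roots (log2 fold change 1.00 ± 0.93 SE, adjusted p = 0.753). In both genes PA2x replicate 3 and ASM replicate 1 were the lowest of their groups by a wide margin.

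Of 9 tested pathogenesis-related genes 7 had positive and 2 negative values, 0 were called, and the median was 0.11. Of 13 tested diterpenoid genes 9 were positive and 4 negative, 0 were called and the median was 0.31. Leaving out 1 library at a time gave medians of -0.20 to 0.43 for the pathogenesis-related list and of -0.15 to 0.91 for the diterpenoid list, lowest without ASM replicate 1 and highest without PA2x replicate 3 in both, so neither median has a settled sign. The flavonoid list had 3 tested genes, with 1 positive and 2 negative values, 0 called and a median of -0.11. The spread of these lists over libraries is that described above for PA2x replicate 3 and ASM replicate 1, and its part in these medians was not tested.

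An identifier outside the lists, Os12g0555100, was singled out after its values were seen because it had the smallest adjusted p among the genes named here. It lies between 2 PR10 genes of the pathogenesis-related list, RSOsPR10 (Os12g0555000) and PR10b (Os12g0555200), in the numbering of the file. It had 137, 197 and 169 normalised reads in PA2x roots, against 1158, 1479.7 and 1617 in ASM roots and 245, 414 and 253 in mock roots. ASM values lay far above the others, and all PA2x values lay below all mock values. The gene was 8.41-fold lower in PA2x than in ASM roots (log2 fold change -3.07 ± 0.23 SE, adjusted p = 9.06e-06), and it was higher in ASM than in mock roots (2.25, adjusted p = 4.76e-05). The difference between PA2x and mock was not called (-0.82, adjusted p = 0.115). Its neighbours did not share this order: RSOsPR10 had 24628, 34074 and 12277 in PA2x roots, against 8275, 17305 and 25559.8 in ASM roots, and PR10b had 56799, 86988 and 31128 in PA2x roots, against 16486, 31272 and 49691 in ASM roots. Both overlapped between the groups and had the spread between libraries seen in the phytoalexin list. Reads of near copies in this cluster cannot be told apart with certainty.

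The 3 tested ethylene genes analysed here had 1 positive and 2 negative values, 0 called and a median of -0.07.

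CIPK15 (Os11g0113700), a protein kinase that links low oxygen to sugar starvation signalling in rice, had 264, 265 and 209 normalised reads in PA2x roots, against 387, 367 and 352 in ASM roots and 223, 267 and 209 in mock roots. PA2x and mock overlapped, and ASM lay above both. The call was the nearest to the threshold of those named (log2 fold change -0.59 ± 0.14 SE, adjusted p = 0.0477), and no leave-one-out fit kept it, with adjusted p of 0.0879 without PA2x replicate 1, 0.0895 without PA2x replicate 2, 0.139 without PA2x replicate 3, 0.11 without ASM replicate 1, 0.133 without ASM replicate 2 and 0.112 without ASM replicate 3. The call also ended without the filter on low values (adjusted p = 0.0581). RAmy3D (Os08g0473900), an alpha-amylase raised by sugar starvation, had 19.3, 38.2 and 32.2 in PA2x roots, against 69.6, 37.5 and 51.3 in ASM roots, with overlap (log2 fold change -0.81 ± 0.33 SE, adjusted p = 0.331). The anaerobic and sugar starvation list had 4 positive and 3 negative values and a median of 0.01. In it 0 genes were called higher and 1 lower, against 0.497% and 0.945% of all tested genes.

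NCED5 (Os12g0617400), of the enzyme family that commits carotenoids to abscisic acid, had 29.5, 36.1 and 20.1 normalised reads in PA2x roots, against 28.8, 25.0 and 62.2 in ASM roots, with overlap (log2 fold change -0.35 ± 0.40 SE, adjusted p = 0.810). The abscisic acid list had 3 positive and 2 negative values, 0 called and a median of 0.24, which was -0.06 without PA2x replicate 3 and ASM replicate 1. CatA (Os02g0115700), a catalase, had 256, 280.2 and 382 in PA2x roots, against 285, 305 and 160.4 in ASM roots, with overlap (log2 fold change 0.32 ± 0.26 SE, adjusted p = 0.711). The redox list had 4 positive and 1 negative value, 0 called and a median of 0.06. Of 8 tested clock genes 3 were positive and 5 negative, 0 were called and the median was -0.12.

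Phosphate genes moved in both directions. PHO2 (Os05g0557700), a ubiquitin-conjugating enzyme that limits phosphate uptake and transport to the shoot, had 1887, 2408 and 2140.2 normalised reads in PA2x roots, against 1089.9, 1259 and 1299 in ASM roots and 1780.3, 1575 and 1539 in mock roots. Every PA2x value lay above every mock value, and every mock value above every ASM value. PHO2 was 1.76-fold higher in PA2x than in ASM roots (log2 fold change 0.82 ± 0.11 SE, adjusted p = 0.00144). It kept its call in all 6 fits that left out a library, with adjusted p between 0.00225 and 0.0111, and lost it with only the 6 libraries in the fit (adjusted p = 0.0545). Against mock it was lower in ASM roots (-0.42, adjusted p = 0.0422), and the PA2x difference was not called (0.39, adjusted p = 0.126).

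PT2 (Os03g0150800), a phosphate transporter of rice roots, had 809.5, 432 and 482 normalised reads in PA2x roots, against 2318, 959 and 1114 in ASM roots and 1117, 785 and 1029.8 in mock roots. ASM replicate 1 was more than any other value of the 3 groups, and the highest PA2x value was below the lowest ASM value. PT2 was lower in PA2x than in ASM roots (log2 fold change -1.29 ± 0.29 SE, adjusted p = 0.0344), with adjusted p of 0.149 without PA2x replicate 2, 0.0925 without PA2x replicate 3, 0.0877 without ASM replicate 1 and 0.0617 without ASM replicate 3. PT8 (Os10g0444700), a high-affinity phosphate transporter, had 4083, 3269 and 4267 in PA2x roots, against 5977, 4535 and 5135 in ASM roots, without overlap and without a call (log2 fold change -0.43 ± 0.13 SE, adjusted p = 0.132). PT8 was chosen after its values were seen. Of 6 tested phosphate genes 1 was positive and called higher, 5 were negative and 1 of these was called lower, against 0.497% of all genes called higher and 0.945% lower. The median was -0.22, and -0.40 without ASM replicate 2.

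Nitrogen genes had mostly lower values in PA2x roots, but 0 of 12 were called. NAR2.1 (Os02g0595900), the partner protein of the high-affinity nitrate transporters, had 3358, 1497 and 2363 normalised reads in PA2x roots, against 6432, 3613 and 4771 in ASM roots and 4972, 7154 and 3938 in mock roots. The PA2x values lay below all ASM values (log2 fold change -1.07 ± 0.27 SE, adjusted p = 0.0629). NRT2.1 (Os02g0112100), one of those transporters, had 51.9, 5.31 and 28.2 in PA2x roots, against 116, 57.8 and 113 in ASM roots (log2 fold change -2.11 ± 0.67 SE, adjusted p = 0.170). Its mock values, 88.1, 220 and 36.5, overlapped both groups. PA2x replicate 2 was the lowest library in both genes. NAR2.1 and NRT2.1 were chosen after their values were seen.

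NIA1 (Os08g0468100), a nitrate reductase, had 538, 356 and 559.5 normalised reads in PA2x roots, against 524, 274 and 249 in ASM roots and 803, 788 and 769 in mock roots. PA2x and ASM overlapped through ASM replicate 1 (log2 fold change 0.53 ± 0.22 SE, adjusted p = 0.334), and without that library NIA1 was called higher (adjusted p = 0.01). GS1;2 (Os03g0223400), a cytosolic glutamine synthetase of roots, had 5716, 1963 and 3807 in PA2x roots, against 6349.6, 3289 and 4140.1 in ASM roots, with overlap (log2 fold change -0.34 ± 0.29 SE, adjusted p = 0.732). GS1;1 (Os02g0735200), which was chosen after its values were seen, had 4032, 3914 and 3061 in PA2x roots, against 3027, 2540 and 2886 in ASM roots. All its PA2x values lay above all ASM values without a call. The nitrogen list had 4 positive and 8 negative values and a median of -0.35, or -0.65 without PA2x replicate 1 and -0.05 without PA2x replicate 2. In 3 members all PA2x values were below all ASM values, and in 1 above, against 7.99% and 6.57% of all tested genes.

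Iron uptake genes split the libraries of each group. IRT1 (Os03g0667500), the ferrous iron transporter, had 9301, 4702 and 8565 normalised reads in PA2x roots, against 11709, 4592 and 4404 in ASM roots and 12167, 10346 and 9909 in mock roots. YSL15 (Os02g0650300), which takes up iron bound to phytosiderophores, had 10977, 6296 and 9941 in PA2x roots, against 12459.6, 5789.6 and 6496 in ASM roots and 13064, 11855 and 10759.5 in mock roots. In both genes PA2x replicate 2, ASM replicate 2 and ASM replicate 3 were low and ASM replicate 1 was the highest of the 6. Neither was called (0.22, adjusted p = 0.854 for IRT1, and 0.18, adjusted p = 0.836 for YSL15). Of 11 tested iron genes 9 were positive and 2 negative, 0 were called and the median was 0.13, or 0.38 without ASM replicate 1 and -0.03 without ASM replicate 2.

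Among water channel genes, 2 of the vacuole membrane were higher in PA2x than in ASM roots. TIP1;1 (Os03g0146100), a tonoplast aquaporin, had 5274, 4691 and 4804 normalised reads in PA2x roots, against 3809, 3323 and 2975 in ASM roots and 3871, 4222 and 4374 in mock roots. TIP2;2 (Os06g0336200), another of this family, had 4317, 4213 and 4537 in PA2x roots, against 3487, 2810.1 and 2404 in ASM roots and 3988, 3356 and 4141 in mock roots. In both genes all PA2x values lay above all ASM values. Mock stood between them in TIP1;1 and overlapped ASM in TIP2;2. TIP1;1 was 1.47-fold higher (log2 fold change 0.55 ± 0.11 SE, adjusted p = 0.0224), with adjusted p of 0.102 without PA2x replicate 1, 0.0565 without PA2x replicate 2, 0.0802 without ASM replicate 2 and 0.123 without ASM replicate 3. TIP2;2 was 1.52-fold higher (log2 fold change 0.60 ± 0.13 SE, adjusted p = 0.0351), with adjusted p of 0.104 without PA2x replicate 1, 0.0974 without PA2x replicate 2, 0.0889 without PA2x replicate 3, 0.118 without ASM replicate 2 and 0.185 without ASM replicate 3, and of 0.0623 without the filter on low values. Neither group differed from mock in these genes at the threshold.

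Among the aquaporins of the plasma membrane, PIP1;1 (Os02g0666200) had 3076, 3132 and 3259 normalised reads in PA2x roots, against 2491, 2409 and 2253 in ASM roots (log2 fold change 0.41 ± 0.13 SE, adjusted p = 0.167). PIP2;6 (Os04g0233400) had 1489.7, 1452 and 1656 in PA2x roots, against 1233, 858 and 887 in ASM roots (log2 fold change 0.64 ± 0.21 SE, adjusted p = 0.199). Both were chosen after their values were seen, and in both PA2x lay above ASM without a call. Mock values overlapped both groups, with 2616, 2434 and 3482 for PIP1;1 and 1359, 910 and 1885 for PIP2;6. PIP1;3 (Os02g0823100), the most abundant of the list, had a lower mean in PA2x than in ASM roots, with overlap and without a call. It had 17244, 17194 and 26040 in PA2x roots, against 26737, 25813 and 23632 in ASM roots. Of 11 tested aquaporins 8 were positive and 3 negative, 2 were called higher (0.497% of all genes) and 0 lower. The groups did not overlap, with PA2x higher, in 5, where 6.57% of all genes did so. The list median was 0.20, and 0.31 without PA2x replicate 2. The root gene RCc3 given above also had all PA2x values over all ASM values, and whether this bears on the aquaporin values was not tested.

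**Figure D4:**
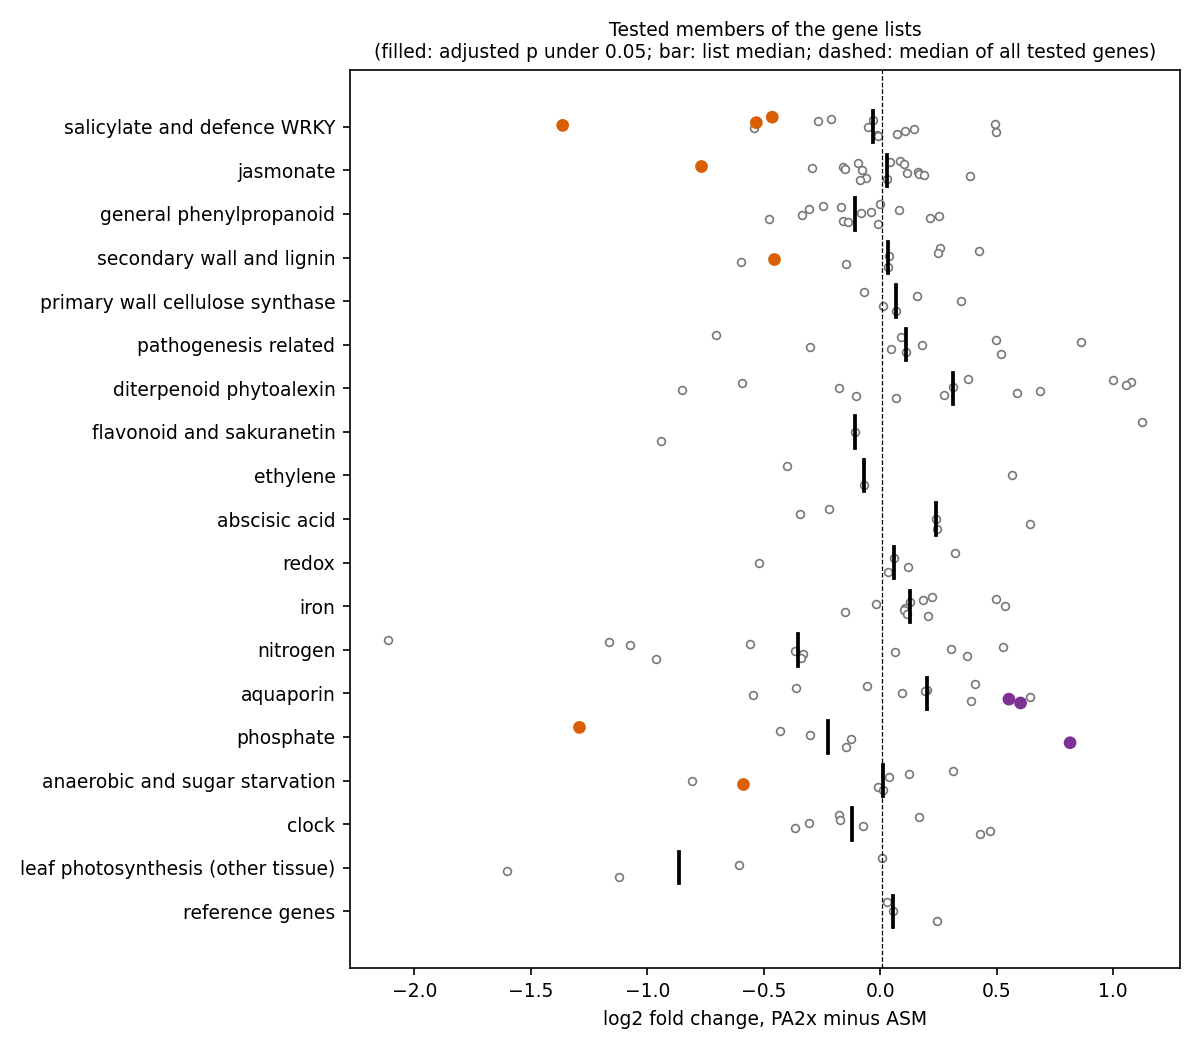
Log2 fold change, PA2x minus ASM (horizontal axis), of each tested member of 19 gene lists (rows), with called members filled, list medians as bars and the median of all genes dashed. Most members of most lists lie open around 0, and the filled points farthest from 0 are WRKY62 and PT2 on the left and PHO2 on the right.

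Outside the lists, the 2 highest and 2 lowest log2 fold changes among called identifiers with a mean of at least 20 and no overlap of PA2x and ASM are given next. No table used here gives these identifiers a name. Os01g0304400 had 276, 349 and 220.1 normalised reads in PA2x roots, against 104, 77.0 and 68.7 in ASM roots and 196, 266 and 188 in mock roots. PA2x and mock overlapped, and ASM lay below both (log2 fold change 1.74 ± 0.18 SE, adjusted p = 0.000117). Os05g0458600 had 27.5, 23.3 and 28.2 in PA2x roots, against 7.96, 7.70 and 7.64 in ASM roots and 12.6, 15.6 and 16.3 in mock roots, so that mock stood between the other two groups (log2 fold change 1.64 ± 0.30 SE, adjusted p = 0.0108). Its adjusted p was 0.0510 without PA2x replicate 1.

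Os10g0515900 had few reads in PA2x and mock roots, with 3.05, 7.43 and 1.34 normalised reads in PA2x roots, against 81.5, 166 and 117 in ASM roots and 3.59, 3.47 and 1.31 in mock roots. In BABA roots it had 33.9, 5.47 and 4.46. The highest PA2x value lay far below the lowest ASM value (log2 fold change -4.77 ± 0.61 SE, adjusted p = 0.000686; 95% interval -6.06 to -3.48). With so few reads in PA2x roots the size of the fold depends on the pseudocount of 1. Os05g0202800 had 4.07, 3.18 and 12.1 in PA2x roots, against 258, 79.9 and 34.9 in ASM roots and 7.19, 6.95 and 18.9 in mock roots (log2 fold change -3.80 ± 0.70 SE, adjusted p = 0.0107). The ASM libraries themselves were spread widely, with replicate 1 highest, and the adjusted p was 0.0565 without PA2x replicate 1 and 0.0583 without PA2x replicate 2.

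**Figure D5:**
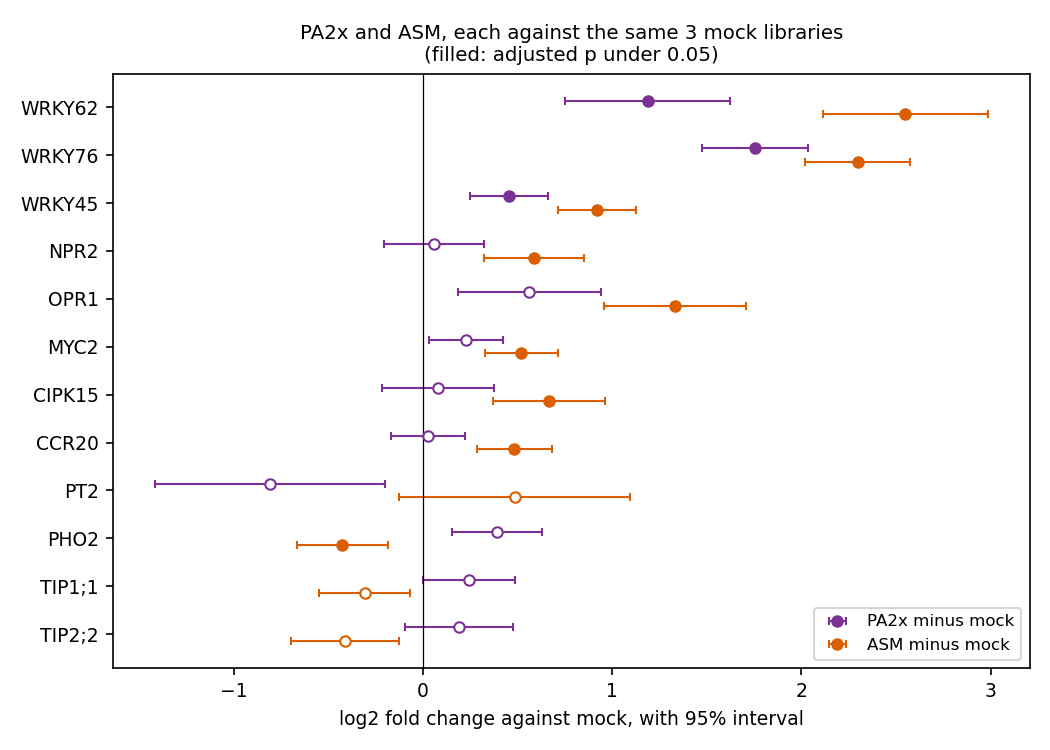
Log2 fold change with its 95% interval for PA2x minus mock and ASM minus mock (horizontal axis) in 12 genes (rows), with called differences filled; both use the same 3 mock libraries. WRKY62 lies at 1.19 for PA2x and 2.55 for ASM, and PHO2 lies on either side of 0.

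The comparison with the single piperonylic acid spray shows how both schedules stand to ASM. PA1x roots differed from ASM roots in 2877 genes (15.7%), and PA2x roots differed from PA1x roots in 2065 genes (11.3%). BABA roots differed from ASM roots in 55 genes (0.3%). These comparisons share the ASM or the PA2x libraries with that of PA2x and ASM. WRKY45 had 567, 682 and 709 normalised reads in PA1x roots, all below every PA2x, ASM and mock value, and PA2x was higher than PA1x (0.91, adjusted p = 1.20e-05). OPR1 had 100.7, 144 and 108 in PA1x roots, likewise the lowest group, and PA2x was higher than PA1x (1.94, adjusted p = 3.47e-06). WRKY76 had 73.3, 102 and 94.1 in PA1x roots, which overlapped mock (2.01 for PA2x minus PA1x, adjusted p = 2.38e-07).

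Neither PAL4 nor C4H4 was called between PA2x and ASM roots. In PA1x roots PAL4 had 1468, 1481 and 1372 normalised reads and C4H4 had 259, 283 and 233. Both were higher in PA2x than in PA1x roots (PAL4 1.52, adjusted p = 7.23e-06, and C4H4 2.17, adjusted p = 0.000791). PAL2, PAL3, PAL6 and PAL7 were also called higher in PA2x than in PA1x roots. PAL1 (-0.06, 95% interval -0.37 to 0.24) and PAL5 (-0.19, 95% interval -0.54 to 0.16) were not called. C4H1 had 1502, 1703 and 1326 in PA1x roots, within the range of its PA2x values. PHO2 and TIP1;1, both higher in PA2x than in ASM roots, showed another order than PAL4 and C4H4. PHO2 had 2265, 2097 and 1964 in PA1x roots (PA2x minus PA1x 0.02, 95% interval -0.22 to 0.26), and TIP1;1 had 4833, 5543 and 5481 (-0.10, 95% interval -0.34 to 0.14). In these genes both PA schedules lay above ASM, with PA1x against ASM at 0.80 for PHO2 (adjusted p = 0.000103) and 0.65 for TIP1;1 (adjusted p = 0.000673). This was not particular to piperonylic acid, as all BABA and mock values also lay above all ASM values in both genes. BABA roots had 1486, 1363 and 1306 for PHO2 and 4818, 4845 and 4354 for TIP1;1. WRKY62 had 23.4, 48.7 and 28.1 in PA1x roots, and PA2x was higher (0.95, adjusted p = 0.00567). In BABA roots WRKY62 had 62.9, 68.4 and 68.6 and WRKY45 had 1160, 1184 and 1222, and both overlapped PA2x. Where PA2x minus PA1x was not called, the interval gives the size of difference that these pools leave possible.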

How the data were processed

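The study measured root RNA of rice in 15 libraries of 5 groups, 3 pools of 4 plants each, with QuantSeq libraries from 2 µg RNA, per the labels' protocols. The deposited values are a signal: reads per gene divided by 1 size factor per library, per the values themselves. The submitters' processing notes list STAR 2.6.1d, Trimmomatic 0.38, FastQC 0.11.8 and DESeq2. For the counting, build, annotation and strand setting were not given in the sources used here, and reads of overlapping or antisense genes may therefore be mixed. Each library's values were whole multiples of 1 read for 100% of genes within a tolerance of 0.1, which gave back totals of 4130194 to 9480830 reads and size factors of 0.620 to 1.53. Steps in ASM replicate 1 lay too close to 1 for a check of its own. Within PA2x and within ASM every pair of libraries differed by more than counting noise, with a chi-square of 5.79 to 29.1 per degree of freedom. The PA1x pairs had 3.71 to 5.85, and they enter the same estimate of spread in the tests.

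The trend method of limma 3.58.1 was run in R 4.3.3 on log2(value + 1), with all 15 libraries in 1 fit and group as the only term, two-sided, with Benjamini-Hochberg adjustment over 18316 genes with a mean of at least 5, and called means an adjusted p under 0.05. Fold changes are on that log2 scale, which understates changes of low genes. Alternatives were edgeR 4.0.16 and DESeq2 1.42.0 on the recovered reads, and other pseudocounts, filters and scalings. Further alternatives were fits without each PA2x or ASM replicate, with a replicate block or with only the 6 libraries. The fit was tested on simulated data. Intervals rest on 1 estimate per gene of the spread between pools, over all 15 libraries. The floor of 3 reads covers counting error only.

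The 20 gene lists, with 176 members of which 175 were in the file and 160 were tested, give RAP identifiers the names they have in general knowledge. For 121 members the RefSeq gene table (assembly ASM3414082v1) had a namesake on that chromosome, in an order that matched. For 50, among them WRKY45, WRKY28, MYC2, PR1a, PHO2, CCR20, NCED5, RCc3 and the PAL and C4H genes, there was no namesake, and 5 had one elsewhere and are not named. The comparison, the lists and the named genes were chosen with earlier results of these data known. Genes were named when called (up to 4 per list and direction with a mean of at least 20), when on a fixed list of marker genes, or as the 2 highest and 2 lowest called identifiers outside the lists whose groups did not overlap. ACT1, OPR7, CESA7, PT8, JAZ13, NAR2.1, NRT2.1, PIP1;1, PIP2;6 and Os12g0555100 were chosen after their values were seen. 1 gene of the fixed list is not reported here.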

Additional observations from a re-analysis of the deposited data

How the results depend on the processing

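No called difference of a gene named in the text changed sign under any alternative tried. Of 1117 recomputed values, 1013 stayed on their side of the threshold, within their spread or within 1.5 times their count. That total does not measure how firm the calls are. Of the 40 named genes in it 15 were called, and the others stayed the same by remaining uncalled. It also holds 323 list medians, and that of the diterpenoid list had a spread of 1.08. Leaving out 1 replicate gave 107 to 281 called genes between PA2x and ASM, 30 to 157 higher and 71 to 156 lower. With PA2x replicates left out there were 43 to 243 genes between PA2x and mock. With ASM replicates left out there were 400 to 879 between ASM and mock and 7 to 267 between BABA and ASM. No mock, PA1x or BABA library was left out, so these ranges do not cover the loss of a library from those groups. With only the 6 libraries compared there were 57 called genes, 11 higher and 46 lower. Without PA2x replicate 3 and ASM replicate 1, chosen after seeing the data, 112 genes were lower in PA2x than in ASM roots, PA2x and mock differed in 359 genes, ASM and mock in 1074 and BABA and ASM in 364. DESeq2 called 138 genes higher between PA2x and ASM (372 in all), 375 between PA2x and mock and 173 between BABA and ASM. edgeR called 276 between PA2x and ASM, 92 of them higher. The cause of these shifts was not tested.

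List medians stayed within their spread in 318 of 323 recomputed values, but 12 of 19 lists changed the sign of their median in at least 1 of them (24 values). Leaving out 1 replicate gave medians of -0.0392 to 0.1216 for secondary wall and lignin, 0.0028 to 0.1128 for primary wall cellulose synthase, 0.1186 to 0.2474 for abscisic acid, 0.1768 to 0.3134 for aquaporin and -0.3994 to -0.1481 for phosphate. Without PA2x replicate 3 and ASM replicate 1 the abscisic acid median was -0.0609.

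Of 15 called genes named in the text, 5 kept their call in every fit that left out 1 library (WRKY62, PHO2, Os01g0304400, Os10g0515900 and Os12g0555100), and 5 kept it with only the 6 libraries. Without the filter on low values the calls of NPR2, OPR1, CIPK15 and TIP2;2 ended. The replicate numbers were not used to pair the PA2x and ASM libraries, as pairing required every correlation of deviations to be over 0.1. For same-numbered PA2x and ASM libraries it was -0.05, 0.08 and -0.34. This check covers same-numbered libraries only and cannot exclude a pairing under other numbers. Whether a number is shared across the other groups was not tested, and whether ASM is numbered in the same order as they are is not known. The replicate block gave 265 called genes and ended the calls of OPR1 (adjusted p = 0.0527) and NPR2 (adjusted p = 0.0521).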

Other observations

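Phosphate genes outside the fixed list were looked up after PHO2 and PT2 had been seen, and they are given as values. PT1 (Os03g0150600), a phosphate transporter, had 4320.4, 3769 and 4706 normalised reads in PA2x roots, against 7205, 5204 and 5105 in ASM roots, so that all PA2x values lay below all ASM values without a call (log2 fold change -0.44 ± 0.15 SE, adjusted p = 0.218). SPX4 (Os03g0827500), a phosphate sensor that holds back PHR factors in rice, had 84.5, 95.5 and 83.2 in PA2x roots, against 76.6, 78.9 and 74.2 in ASM roots (log2 fold change 0.19 ± 0.18 SE, adjusted p = 0.749). PHO1;2 (Os02g0809800), which loads phosphate into the xylem, had 432, 513 and 617 in PA2x roots, against 582, 599 and 596 in ASM roots. The log2 fold changes were -0.20 for PHO1;2, -0.24 for PT4 (Os04g0186400) and -0.11 for PHF1 (Os07g0187700), with adjusted p of 0.646, 0.802 and 0.786 in that order. None of the 5 genes was called.

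The lowest median of the diterpenoid phytoalexin list in each group was in replicate 3 of PA2x (-0.89), PA1x (-1.19), BABA (-1.53) and mock (-0.98), and in replicate 1 of ASM (-0.72).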
